A study of Mus musculus with 6 samples.

Results

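The genes described here encode adaptor proteins that bring deadenylases to messenger RNAs. They are the 3 ZFP36 genes Zfp36, Zfp36l1 and Zfp36l2, and the 4 BTG/TOB genes Btg1, Btg2, Tob1 and Tob2. The 7 were taken by symbol from 30733 distinct gene symbols, and all 7 reached the expression minimum for testing. Cells labelled as hematopoietic stem cells (HSCs) were sorted from the bone marrow of wild-type mice aged 5 months. One fraction had high surface MHC class II (MHCII-hi) and the other had low surface MHC class II (MHCII-lo), with 3 libraries each (n = 3 per group throughout). All libraries carry the label Ctrl, and neither its meaning nor the other markers of the sort are given in the sources used here. The comparison asked how RNA levels differ between the MHCII-hi and MHCII-lo fractions.

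ZFP36 proteins bind AU-rich elements in the 3′ untranslated region (3′ UTR) of short-lived transcripts through a pair of CCCH zinc fingers. They recruit the CCR4-NOT deadenylase, which shortens the poly(A) tail and so starts decay of the message. BTG and TOB proteins bind some of the catalytic subunits of CCR4-NOT through a shared domain. They are known as brakes on cell division and as genes of resting lymphocytes. Zfp36 and Btg2 are also immediate early genes, whose transcription rises within minutes of stimulation or tissue handling.

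Each deposited value was read as FPKM, the fragments of a gene per kilobase of its transcript and per fixed number of fragments of the library, on the evidence of the numbers and not of a header. FPKM is a level per length, so the 7 genes can be compared with each other. Values summed to between 305934 and 306945 FPKM in the MHCII-lo libraries and between 333347 and 333530 FPKM in the MHCII-hi libraries, and read depth is unknown. Pearson's r of log2(FPKM + 1), across 12295 genes that are not independent replicates, was 0.990 to 0.994 within a group and 0.905 to 0.909 between groups. Separate animals are not stated for the libraries, so p-values reflect the scatter of these libraries alone, and that scatter may be technical. The sort was visible in the class II genes. H2-Aa, a class II chain, read 7.34 ± 0.0361 FPKM (SD) in the low fraction and 80.5 ± 0.811 FPKM in the high fraction. H2-Ab1 stood at 9.88 ± 0.338 and 116 ± 2.01 FPKM, and Cd74, the invariant chain, at 49.98 ± 1.01 and 574 ± 5.03 FPKM. Of 9 stem and progenitor cell markers checked, 6 were tested, of which 3 were higher, 1 was lower and 2 did not pass. Ly6a (4.78 ± 0.214 and 14.6 ± 0.517 FPKM), Hlf (0.843 ± 0.0569 and 2.11 ± 0.313 FPKM) and Flt3 (9.80 ± 0.0624 and 14.8 ± 0.384 FPKM) were higher in MHCII-hi, and Cd48 (121 ± 1.32 and 93.1 ± 1.89 FPKM) was lower. Kit stood at 10.9 ± 0.0306 and 10.85 ± 0.208 FPKM and Cd34 at 14.8 ± 0.281 and 15.7 ± 0.414 FPKM, while Slamf1, Procr and Mecom were below 1 FPKM in every library.

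All 7 adaptor genes were higher in MHCII-hi, and for each of them every MHCII-hi library lay above every MHCII-lo library. The tests were made in limma on log2(FPKM + 1) with Benjamini-Hochberg adjustment over the 12295 genes whose mean reached 1 FPKM. By this test 67.8% of those genes differed, 27.2% being higher in MHCII-hi and 40.5% lower. Every MHCII-hi library lay above every MHCII-lo library in 29.6% of genes, and below in 43.3%. The median log2 change of the 7 genes was 0.62, against -0.08 over all tested genes. The sizes were unequal, from 1.14-fold for Tob2 to 3.36-fold for Zfp36l1. Median-of-ratios scaling changed the balance over all genes from 3348 higher and 4982 lower to 4090 higher and 4001 lower. Rescaling without immunoglobulin segments gave 4073 and 3783, and removal of length and GC trends 3945 and 3825, and the 7 genes stayed higher under all 3.

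**Figure D1:**
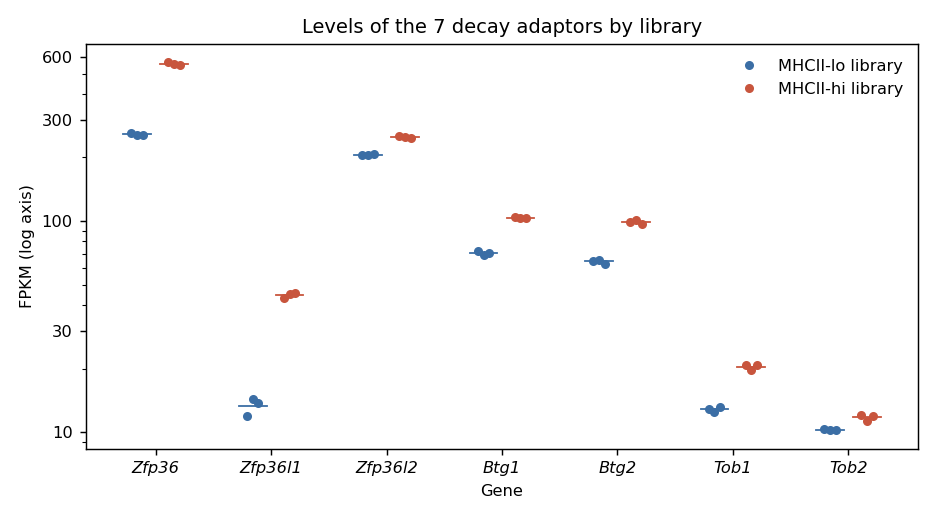
FPKM of the 7 genes in each of the 6 libraries on a log axis. Points are libraries and short lines are group means. The MHCII-hi points of each gene lie above its MHCII-lo points, with the widest gap for Zfp36l1 (3.36-fold) and the narrowest for Tob2 (1.14-fold).

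Zfp36, also called tristetraprolin, limits the output of inflammatory cytokines by destroying their messages. It was the most abundant of the 7 genes in both groups. Its values were 259.91, 255.45 and 255.96 FPKM in MHCII-lo and 564.68, 552.84 and 550.19 FPKM in MHCII-hi. The lowest MHCII-hi library thus stood far above the highest MHCII-lo library, and the coefficient of variation within a group was 0.949% and 1.39%. The ratio of means was 2.16, and the log2 change was 1.11 ± 0.02 (SE; limma adjusted p = 2.44e-08). Its level exceeded that of 98.8% of the tested genes in MHCII-lo, and of 99.5% in MHCII-hi. It lies on GRCm38 chromosome 7, from 28376784 to 28380253 on the minus strand (ENSMUSG00000044786.6, protein-coding). An antisense gene, Gm44710, overlaps it on the plus strand. Gm44710 was listed at 0.27, 0.38 and 0.22 FPKM in MHCII-lo and at 0, 1.69 and 0 FPKM in MHCII-hi. The library kit marks strand, but the strand setting of the counting was not stated.

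Zfp36l1, which together with Zfp36l2 holds back cell cycle entry in developing lymphocytes, had the largest relative change. It read 11.85, 14.37 and 13.73 FPKM in MHCII-lo, and 43.25, 45.13 and 45.77 FPKM in MHCII-hi. All MHCII-hi libraries were therefore above 40 FPKM and all MHCII-lo libraries below 15 FPKM. The log2 change was 1.68 ± 0.07 (SE; limma adjusted p = 1.73e-06). Its rank in level rose from above 69.6% of tested genes in MHCII-lo to above 92.1% in MHCII-hi. Zfp36l1 lies on chromosome 12, from 80107754 to 80113013 on the minus strand (ENSMUSG00000021127.7, protein-coding). A long noncoding gene annotated on its other strand, Gm26669, was not analysed here.

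Zfp36l2, required for definitive hematopoiesis in mice, was abundant in both groups and changed little. Its values were 205.90, 205.04 and 207.26 FPKM in MHCII-lo and 252.00, 250.14 and 247.73 FPKM in MHCII-hi. The groups were separate with a coefficient of variation of 0.543% and 0.857% within a group. The ratio was 1.21, and the log2 change was 0.28 ± 0.01 (SE; limma adjusted p = 4.61e-06). It lies on chromosome 17, from 84183931 to 84187947 on the minus strand (ENSMUSG00000045817.8, protein-coding), with an antisense gene, AC132455.1, that was not analysed here.

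The unequal changes altered the make-up of the ZFP36 family. The 3 genes summed to 476 ± 1.46 FPKM (SD) in the low fraction and 851 ± 8.40 FPKM in the high fraction. Zfp36 made up 54.0 ± 0.399% of that sum in MHCII-lo, against 65.4 ± 0.270% in MHCII-hi. Zfp36l2 made up 43.2 ± 0.184% and 29.4 ± 0.0969%, although its own level was higher in MHCII-hi. Zfp36l1 contributed 2.80 ± 0.282% and 5.26 ± 0.205%. The libraries of the groups did not overlap in any of these 3 shares, and the exact two-sided permutation p was 0.10 for each, the smallest that 3 against 3 libraries allows (0.175 adjusted over the 7 shares). A share is not altered by scaling a whole library by 1 factor.

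**Figure D2:**
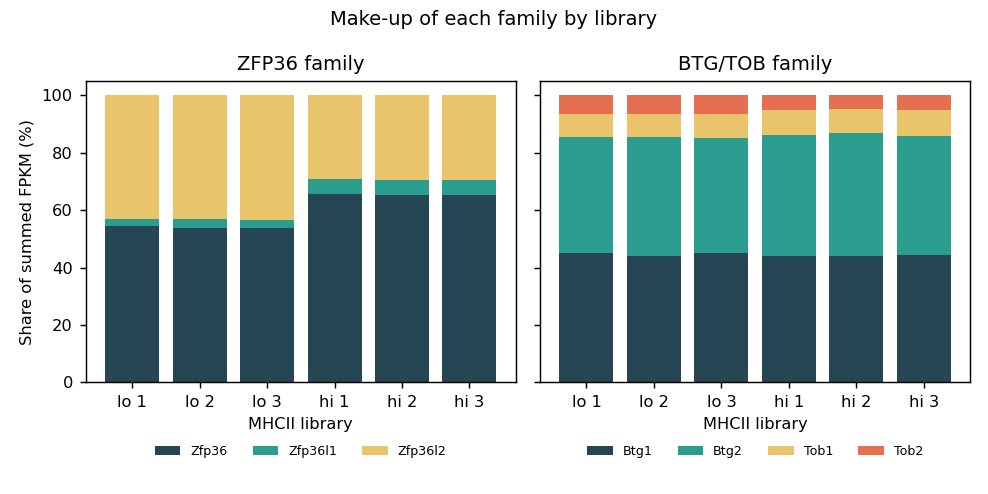
Share of each gene in the summed FPKM of its family (percent), 1 bar per library. In the ZFP36 family the Zfp36 segment grows from 54.0% to 65.4% and the Zfp36l2 segment shrinks from 43.2% to 29.4%, while the segments of Btg1 and Btg2 in the BTG/TOB family stay between 43.9% and 45.0% and between 40.0% and 43.0%.

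The 3′ UTRs of the ZFP36 genes themselves carry the element that their proteins bind. In the longest GENCODE M21 protein-coding transcript of each gene, the letters TATTTAT were searched on the sense strand, overlapping copies included. Zfp36, Zfp36l1 and Zfp36l2 each had 3 copies, in 3′ UTRs of 774, 1835 and 1822 bases. Btg2 and Tob2 had 1 copy each, in 2199 and 2457 bases, and Btg1 and Tob1 had none in 4166 and 767 bases. Among 10061 tested genes with a 3′ UTR, 29.5% had at least 1 copy and 96.3% had fewer than 3. The first copy in each of the 5 genes is shown with 10 bases on either side, to show the element in its place. Sequences are from GENCODE M21 on GRCm38, 5′ to 3′, and capitals mark the element.
Zfp36, chr7:28376967-28376993, minus strand: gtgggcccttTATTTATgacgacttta
Zfp36l1, chr12:80108423-80108449, minus strand: tatcaaaacgTATTTATtgccaaacta
Zfp36l2, chr17:84184915-84184941, minus strand: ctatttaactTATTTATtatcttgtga
Btg2, chr1:134077250-134077276, minus strand: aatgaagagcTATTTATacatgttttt
Tob2, chr15:81849861-81849887, minus strand: atcacctgctTATTTATgtacgaggtt
A match shows only that these letters are present. Zfp36l1 and Zfp36l2, with 3 copies each, had log2 changes of 1.68 and 0.28.

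Btg1, a gene of quiescent lymphocytes, was the most abundant BTG/TOB gene. It read 72.21, 69.15 and 70.17 FPKM in MHCII-lo and 104.13, 103.68 and 103.13 FPKM in MHCII-hi. The MHCII-hi libraries lay within about 1 FPKM of each other, all above 100 FPKM. The log2 change was 0.55 ± 0.02 (SE; limma adjusted p = 1.47e-06), a ratio of 1.47. Btg1 lies on chromosome 10, from 96617006 to 96622809 on the plus strand (ENSMUSG00000036478.8, protein-coding).

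Btg2, a target of p53 and an early response gene, followed Btg1 closely. Its values were 64.90, 65.59 and 62.49 FPKM in MHCII-lo and 99.23, 101.65 and 97.03 FPKM in MHCII-hi. The log2 change was 0.62 ± 0.03 (SE; limma adjusted p = 2.58e-06), a ratio of 1.54. In both groups each Btg2 library was below each Btg1 library, by a small margin. Btg2 lies on chromosome 1, from 134075170 to 134079120 on the minus strand (ENSMUSG00000020423.6, protein-coding).

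Tob1 and Tob2 carry longer tails than the BTG proteins, with motifs that bind the poly(A)-binding protein. Tob1 read 12.86, 12.47 and 13.13 FPKM in MHCII-lo and 20.67, 19.67 and 20.86 FPKM in MHCII-hi, a ratio of 1.59. Its log2 change was 0.63 ± 0.03 (SE; limma adjusted p = 7.70e-06), close to that of Btg2. Tob2 read 10.37, 10.18 and 10.25 FPKM in MHCII-lo and 12.05, 11.25 and 11.87 FPKM in MHCII-hi. It had the smallest change of the 7, with a log2 change of 0.17 ± 0.04 (SE; limma adjusted p = 0.00393), and its lowest MHCII-hi library was less than 1 FPKM above its highest MHCII-lo library. Tob1 lies on chromosome 11, from 94211454 to 94215495 on the plus strand (ENSMUSG00000037573.5). Tob2 lies on chromosome 15, from 81848272 to 81858796 on the minus strand (ENSMUSG00000048546.8), and both are protein-coding. Tob2 also has an antisense gene, Gm49476, that was not analysed here.

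The BTG/TOB family summed to 158 ± 2.20 FPKM (SD) in the low fraction and 235 ± 1.89 FPKM in the high fraction, a ratio of 1.49. Its make-up moved less than that of the ZFP36 family. Btg1 held 44.6 ± 0.617% and 44.1 ± 0.199% of the sum, and Btg2 held 40.7 ± 0.843% and 42.2 ± 0.705%. Tob1 held 8.12 ± 0.260% and 8.68 ± 0.322%. For these 3 shares the groups overlapped, with exact permutation p-values of 0.30 for Btg1 and 0.20 for Btg2 and Tob1 (0.30 and 0.233 adjusted over the 7 shares). Tob2 held 6.50 ± 0.0584% and 4.99 ± 0.196%, with no overlap (exact permutation p = 0.10, and 0.175 adjusted). Together the 7 genes took 0.207 ± 0.000971% of a library's FPKM in MHCII-lo, against 0.326 ± 0.00298% in MHCII-hi.

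The order of levels in MHCII-lo ran from Zfp36 through Zfp36l2, Btg1, Btg2, Zfp36l1 and Tob1 to Tob2. Zfp36l1 (11.85 to 14.37 FPKM) and Tob1 (12.47 to 13.13 FPKM) overlapped there and could not be ordered. In MHCII-hi the order of means was the same, and no 2 neighbours overlapped, because Zfp36l1 (43.25 to 45.77 FPKM) lay well above Tob1 (19.67 to 20.86 FPKM). The remaining genes of both families were low. Btg3, an antiproliferative relative, stood at 4.51 ± 0.354 FPKM in the low fraction and 4.38 ± 0.270 FPKM in the high fraction, with overlapping groups (log2 change -0.03 ± 0.06 SE; limma adjusted p = 0.660). Btg4, known from oocytes, was listed at 0 in every library, and Zfp36l3, known from placenta, was listed at 0.01 FPKM in 1 MHCII-lo library and at 0 in the others.

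The promoters were read for known regulatory letters, because the 7 genes were higher together. RefSeq windows on GRCm38.p6 were matched for 6 of the 7 genes, and the 250 bases before each start were searched on both strands. The shares given are of 32851 such windows of equal length, followed by the share among the 10752 windows of genes tested here. The motifs were chosen after the sequences had been seen. Btg2 held the cAMP response element TGACGTCA at bases 166 to 159 before its start, which 1.55% of all windows and 2.59% of those of tested genes hold. Btg1 held the forkhead letters TGTTTAC at bases 204 to 198 before its start, found in 3.17% and 2.21% of windows. The TATA letters TATAAA stood 26 bases before the start of Btg1, 29 bases before that of Zfp36l1 and 47 bases before that of Tob1, and 12.4% and 6.41% of windows hold them. CCAAT letters occurred in Btg1, Btg2, Tob1 and Zfp36l1 and in 33.8% and 35.8% of windows. The Sp1 letters GGGCGG occurred in Btg1, Btg2, Tob1, Tob2 and Zfp36 and in 32.7% of all windows, but 57.2% of those of tested genes. The Tob2 window lies before its RefSeq start, but inside the longer GENCODE span of Tob2. The AP-1 letters TGACTCA (4.46% and 3.17% of windows) and the EGR motif GCGTGGGCG (0.536% and 1.02%) matched in none of the 6. Windows of 3 genes are shown because they hold the cAMP, forkhead and TATA matches. They are written 5′ to 3′ on the gene's strand and end at the last base before the start. Capitals mark the cAMP, forkhead, TATA and CCAAT matches, and the last 2 share 1 base in Zfp36l1.
Btg2, chr1:134079156-134079405, minus strand: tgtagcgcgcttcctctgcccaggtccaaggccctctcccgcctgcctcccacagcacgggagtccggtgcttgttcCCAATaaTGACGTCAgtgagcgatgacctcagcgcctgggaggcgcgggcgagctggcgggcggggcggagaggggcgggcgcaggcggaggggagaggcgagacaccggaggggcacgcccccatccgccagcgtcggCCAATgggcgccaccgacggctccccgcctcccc
Btg1, chr10:96616751-96617000, plus strand: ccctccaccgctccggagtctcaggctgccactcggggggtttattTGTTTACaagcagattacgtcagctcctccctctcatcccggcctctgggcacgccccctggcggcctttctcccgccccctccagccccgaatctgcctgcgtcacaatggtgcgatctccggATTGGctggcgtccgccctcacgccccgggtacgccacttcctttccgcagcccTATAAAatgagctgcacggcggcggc
Zfp36l1, chr12:80113014-80113263, minus strand: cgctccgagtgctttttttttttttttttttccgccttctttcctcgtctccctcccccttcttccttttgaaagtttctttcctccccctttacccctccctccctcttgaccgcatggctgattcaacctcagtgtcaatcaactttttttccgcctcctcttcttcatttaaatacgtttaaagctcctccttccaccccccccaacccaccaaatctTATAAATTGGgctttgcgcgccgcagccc
Zfp36 held the other EGR letters searched, GCGGGGGCG, a site of the Egr1 zinc fingers, which 2.57% of all windows and 4.60% of those of tested genes hold. It also held a CArG box, the site of serum response factor, which 1.47% and 1.11% of them hold and which shares 1 base with an Sp1 match. Both lie before the RefSeq start, but inside the first exon of a longer GENCODE transcript. They are shown with 10 bases on either side, since Zfp36 and Egr1 are both early response genes, and capitals mark the match.
Zfp36 EGR site, chr7:28379315-28379343, minus strand: gagctacgccGCGGGGGCGcgtcccggaa
Zfp36 CArG box, chr7:28379267-28379296, minus strand: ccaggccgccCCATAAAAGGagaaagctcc
A match in these windows is a description of the letters and not evidence of binding.

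Of 21 immediate early genes outside the 7 adaptors, 20 were higher and 1, Atf3, was lower, with a median log2 change of 0.64. Among all tested genes 27.2% were higher and 40.5% were lower. Egr1 read 66.62, 67.58 and 67.88 FPKM in MHCII-lo and 185.06, 185.09 and 182.75 FPKM in MHCII-hi (log2 change 1.44 ± 0.02 SE, limma adjusted p = 1.78e-08). The nuclear receptor gene Nr4a1 went from 55.8 ± 1.11 to 114 ± 0.378 FPKM, and Junb, an AP-1 subunit, from 199 ± 5.47 to 373 ± 7.64 FPKM. Egr3 was higher at a low level, 0.467 ± 0.0635 against 1.81 ± 0.107 FPKM. How far the rise of Zfp36 and Btg2 follows this response was not tested.

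The deadenylase that the adaptors recruit is CCR4-NOT. Of 12 CCR4-NOT genes, Cnot3, Cnot4 and Tnks1bp1 were higher (3 genes), Cnot6, Cnot6l, Cnot8, Cnot9 and Cnot10 were lower (5 genes) and 4 did not pass, with a median log2 change of -0.09. These counts are near the shares over all tested genes (27.2% higher and 40.5% lower), and the median is near theirs of -0.08. The summed FPKM of the complex was 182 to 183 across the MHCII-lo libraries, against 167 to 170 across the MHCII-hi libraries. Cnot6, a catalytic subunit, fell from 24.4 ± 0.410 to 17.3 ± 0.263 FPKM (log2 change -0.48 ± 0.03 SE; limma adjusted p = 8.24e-06). Cnot8 fell less, from 28.0 ± 1.40 to 24.5 ± 0.758 FPKM. Cnot7 did not pass, at 14.3 ± 0.555 and 13.4 ± 0.580 FPKM (limma adjusted p = 0.111). Cnot9, a subunit that docks adaptor proteins, fell from 23.2 ± 1.29 to 17.1 ± 0.408 FPKM. Cnot3, a structural subunit, rose from 11.6 ± 0.121 to 15.5 ± 0.614 FPKM, and Cnot4, a ubiquitin ligase, from 3.42 ± 0.146 to 4.51 ± 0.187 FPKM. Median-of-ratios scaling and scaling without immunoglobulin segments each turned the split to 5 higher and 2 lower, so no direction is given for the complex as a whole.

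Other steps of decay were mixed or lower. Over all tested genes 27.2% were higher and 40.5% lower, with a median log2 change of -0.08. The medians of the other deadenylases (-0.10) and of the decapping genes (-0.07) were near that value. Among 7 tested genes of other deadenylases, Pan2 and Pan3, which form a complex of their own, were higher, and Parn and Angel2 were lower. Parn, a poly(A) ribonuclease, fell from 7.08 ± 0.265 to 5.45 ± 0.215 FPKM. Angel2 passed narrowly (limma adjusted p = 0.0497), and with 11 of 17 alternatives the count of lower genes was 1 in place of 2. Of 9 poly(A)-binding proteins and their partners, 5 (Pabpc4, Paip1, Paip2b, Larp1 and Larp4) were lower and 1, Pabpc1, was higher by 1.05-fold. The Pabpc1 call was lost with no mean-variance trend (0 higher), while median-of-ratios scaling, immunoglobulin-free scaling and removal of length and GC trends put 2, 3 and 2 of the genes higher. Of 10 tested decapping genes, Dcp1b, Edc4 and Eif4enif1 were higher and Dcp2, Edc3, Lsm1, Ddx6 and Dcps were lower. The decapping enzyme Dcp2 fell from 8.89 ± 0.460 to 5.27 ± 0.145 FPKM. The count of lower decapping genes was 3 with median-of-ratios or immunoglobulin-free scaling and 2 with length and GC trends removed. Of 15 tested genes of 3′ to 5′ decay, 12 were lower and 1, the helicase gene Skiv2l, was higher, with a median log2 change of -0.38. The exosome subunits Exosc7 and Exosc8 fell from 5.05 ± 0.0321 to 2.59 ± 0.314 FPKM and from 15.9 ± 0.400 to 9.43 ± 0.136 FPKM. Wdr61, of the Ski complex, fell from 8.88 ± 0.261 to 5.31 ± 0.535 FPKM.

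Other proteins that bind 3′ UTRs were counted next. Of 22 tested genes, 15 were higher, 5 were lower and 2 did not pass, with a median log2 change of 0.18. The shares over all tested genes were 27.2% higher and 40.5% lower. Zc3h12a, the endonuclease Regnase that cuts inflammatory messages, read 8.92, 8.26 and 9.13 FPKM in MHCII-lo and 18.33, 17.57 and 17.85 FPKM in MHCII-hi (log2 change 0.95 ± 0.04 SE; limma adjusted p = 2.71e-06). Samd4b, a mammalian Smaug protein, rose from 6.05 ± 0.326 to 10.1 ± 0.473 FPKM. Tnrc6b, which links miRNA-bound Argonaute to CCR4-NOT, rose from 3.62 ± 0.123 to 5.27 ± 0.287 FPKM. Hnrnpd, Elavl1, Tial1, Pum2 and Celf1 were lower, and the count of lower genes was 3 with median-of-ratios or immunoglobulin-free scaling.

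**Figure D3:**
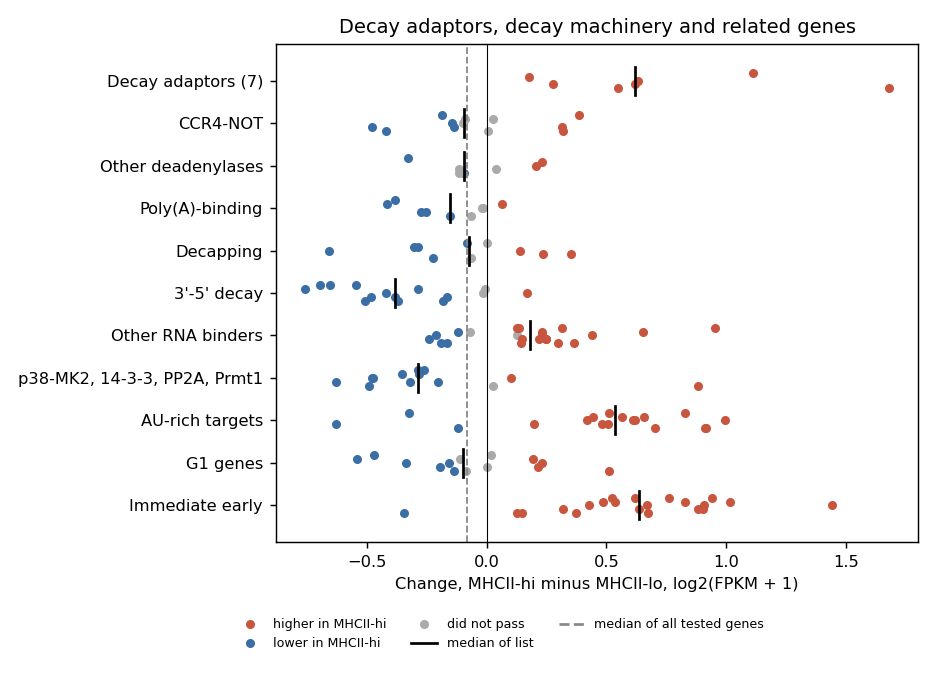
Change on the log2(FPKM + 1) scale of every tested gene in 11 groups, with the median of each group as a black bar and the median of all tested genes (-0.08) as a dashed line. Points of the 7 adaptors, of immediate early genes and of AU-rich targets lie mostly to the right, and those of 3′ to 5′ decay mostly to the left.

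Genes that act on the adaptor proteins were mostly lower. Of 13 tested kinase, 14-3-3, phosphatase and partner genes, 10 were lower and 2 were higher, namely Dusp1 and Ywhaz, with a median log2 change of -0.29. Across all tested genes 40.5% were lower and 27.2% were higher. Phosphorylation by the kinase MK2 (Mapkapk2) lets 14-3-3 proteins bind ZFP36 and restrains its activity. Mapkapk2 read 117.45, 114.69 and 113.08 FPKM in MHCII-lo and 81.09, 82.33 and 84.08 FPKM in MHCII-hi. The 14-3-3 gene Ywhab fell from 85.5 ± 0.0289 to 61.1 ± 0.800 FPKM, and Ppp2cb, a catalytic subunit of the opposing phosphatase, from 66.4 ± 2.65 to 46.9 ± 1.65 FPKM. Prmt1, an arginine methyltransferase that binds Btg1 and Btg2, fell from 30.3 ± 0.431 to 19.3 ± 1.32 FPKM. Dusp1, which switches off p38 and is also counted among the immediate early genes, rose from 142 ± 3.05 to 263 ± 1.99 FPKM. Phosphorylation was not measured.

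Known AU-rich targets of the ZFP36 family were mostly higher. Of 18 tested targets, 15 were higher and 3, Ccl2, Plau and Bcl2, were lower, with a median log2 change of 0.54. The shares over all tested genes were 27.2% higher and 40.5% lower. Ier3 is also counted among the immediate early genes, and Ccnd1 among the G1 genes. The chemokine gene Ccl3 read 255.20, 248.60 and 247.47 FPKM in MHCII-lo and 491.94, 501.21 and 505.83 FPKM in MHCII-hi (log2 change 0.99 ± 0.02 SE; limma adjusted p = 6.90e-08). Cxcl2 went from 45.96 ± 1.70 to 87.7 ± 3.44 FPKM, Ptgs2, an enzyme of prostaglandin synthesis, from 8.35 ± 0.400 to 16.6 ± 0.575 FPKM, and Il1b from 10.5 ± 0.366 to 19.5 ± 1.61 FPKM. Tnf, the founding target, stood at 16.5 ± 0.0737 and 23.6 ± 2.64 FPKM. Steady-state RNA does not separate synthesis from decay, and half-lives were not measured.

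G1 cyclins, their kinases and the E2F and RB genes set the entry into the cell cycle. Of 14 genes, Ccnd1, Ccnd3, Rb1 and Rbl2 were higher (4 genes), 6 were lower and 4 did not pass, with a median log2 change of -0.10. These counts too are near the shares over all tested genes (27.2% and 40.5%). Cyclin E genes were lower, Ccne1 falling from 15.9 ± 0.668 to 10.6 ± 0.187 FPKM and Ccne2 from 15.6 ± 0.726 to 11.01 ± 1.15 FPKM. Rbl1, a relative of the retinoblastoma protein, fell from 20.2 ± 0.163 to 15.8 ± 0.530 FPKM, and Ccnd1 (cyclin D1) rose from 2.61 ± 0.131 to 4.14 ± 0.192 FPKM.

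Markers of several cell types moved in the same comparison, and their part in the changes of the 7 adaptors was not tested. The shares over all tested genes were 27.2% higher and 40.5% lower. All 9 tested B cell markers were higher, and their summed level was 23.8 to 26.4 FPKM in the low fraction, against 191 to 196 FPKM in the high fraction. All 7 plasma cell markers were higher (77.2 to 80.1 against 458 to 464 FPKM). Jchain was the largest term of the MHCII-hi sum, at 17.6 ± 1.91 and 341 ± 3.52 FPKM. Xbp1 was the largest of the MHCII-lo sum, at 54.0 ± 0.395 and 68.3 ± 1.53 FPKM. Neutrophil markers were abundant in both groups, at 16402 to 16444 against 22007 to 22302 FPKM. Of these 10 markers 6 were higher, 3, Mpo, Elane and Prtn3, were lower, and S100a8 did not pass. Ngp had the largest rise in that sum, from 2118 ± 24.6 to 5721 ± 25.6 FPKM, while Elane fell from 1121 ± 17.8 to 782 ± 12.2 FPKM. All 8 erythroid markers were lower (728 to 733 against 466 to 490 FPKM). Of 8 monocyte and macrophage markers 6 were lower and 2, C1qa and C1qb, were higher (961 to 986 against 631 to 651 FPKM). Of 10 T and NK cell markers 7 were higher and 2, Cd3d and Nkg7, were lower (162 to 171 against 172 to 182 FPKM). Nkg7 was the largest term of that sum, at 117 ± 2.79 and 96.2 ± 1.42 FPKM. Of 6 tested dendritic cell markers 1, Bst2, was lower and 5 were higher (89.2 to 90.0 against 120 to 125 FPKM). The 5 were Siglech, Itgax, Flt3, Cd209a and Clec9a. Among 7 basophil, mast cell and eosinophil markers 4 were higher and 1, Prg2, was lower (2267 to 2288 against 2410 to 2411 FPKM). Cpa3, Mcpt8, Prss34 and Epx were the higher ones. Prg2 was the largest term there, at 1525 ± 10.8 and 1212 ± 9.42 FPKM. Of 5 tested megakaryocyte markers 2, Itga2b and Gp1ba, were higher and 3 did not pass (20.9 to 23.2 against 27.4 to 29.5 FPKM). No marker on these lists was at 0 in every library. In such bulk libraries fewer cells of a type and less RNA per cell cannot be told apart. Immunoglobulin segments took 0.392% to 0.458% of the FPKM of MHCII-lo libraries, against 8.26% to 8.34% of MHCII-hi libraries, and with them left out and the libraries rescaled, the log2 changes of the 7 genes were larger, from 0.29 for Tob2 to 1.80 for Zfp36l1.

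**Figure D4:**
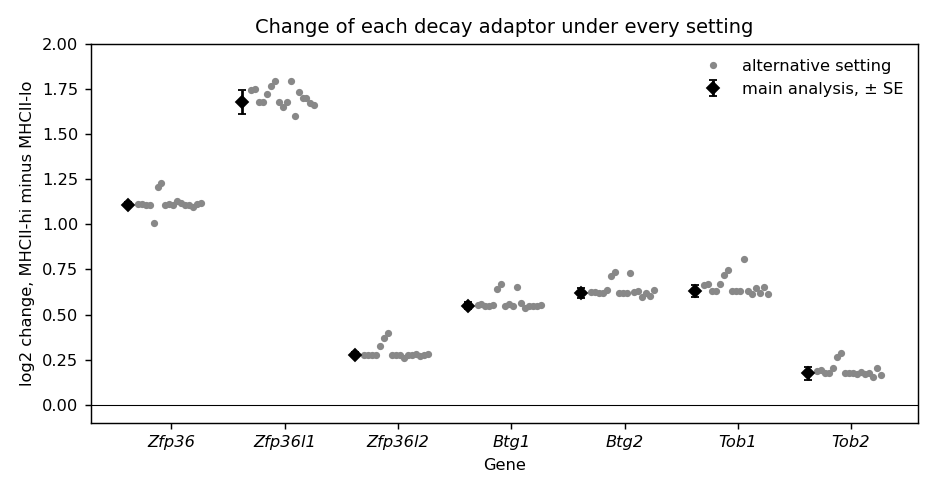
Change of each of the 7 genes on the log2 scale. Diamonds are the values given above with their SE, and grey points are the 17 alternative settings. All points lie above 0, and Zfp36l1 (1.60 to 1.80) and Zfp36 (1.01 to 1.23) stay above the other 5 genes.

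Genes whose levels followed each adaptor most closely over the 6 libraries were found by Euclidean distance of centred log2(FPKM + 1) among 10596 genes. Closest to Zfp36 were Lilr4b, an inhibitory receptor gene (log2 change 1.12, distance 0.0351), and mt-Atp8 (1.10, distance 0.0393). Closest to Zfp36l1 were Ciita, the master regulator of MHC class II genes (1.64, distance 0.135), and Mir23a (1.71, distance 0.142). Both are low genes, whose changes are understated on this scale. Ciita read 0.387 ± 0.123 and 3.32 ± 0.186 FPKM, a ratio of 8.59. Mir23a read 1.04 ± 0.219 and 5.64 ± 0.320 FPKM, a ratio of 5.43. The ratio of Zfp36l1 was 3.36, so the likeness holds on the log2(FPKM + 1) scale and not in fold change. Tmem259 and E2f4 were closest to Zfp36l2, Cd9 and Satb1 to Btg1, and Dmxl2 and Fchsd1 to Btg2. Crtc2 and Gfod1 were closest to Tob1, and Fip1l1 and Zfp950 to Tob2. For low genes among these the ratios differed too. Satb1 had 1.60 against 1.47 for Btg1, and Zfp950 had 1.23 against 1.14 for Tob2. Dmxl2 and Fchsd1 had 1.69 and 1.86 against 1.54 for Btg2. The ratios of Tmem259, E2f4, Cd9, Crtc2, Gfod1 and Fip1l1 were near those of their adaptors. Among the 7 themselves, Btg1 and Btg2 were the closest pair (distance 0.117).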

How the data were processed

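Poly(A) RNA-seq libraries were made from sorted cells with a stranded kit, per the labels' protocols. The submitters' processing notes name fastp, HISAT2, StringTie, GRCm38 and mm10, with no versions. The authors deposited 1 table per library, with 30803 rows and 2 decimals, whose unit the headers do not name. Those deposited values were read as FPKM, a unit scaled by transcript length and library size that StringTie writes. Low values were not whole multiples of a step, so read depth is unknown and no counting interval is given.

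For 67 repeated symbols the row with the highest mean carried the symbol. The 70 extra rows stayed under separate names and were tested as genes of their own where their mean reached 1 FPKM. The 12295 genes whose mean reached 1 FPKM were compared between groups in limma 3.58.1 under R 4.3.3 on log2(FPKM + 1), with a mean-variance trend, two-sided, at an adjusted p under 0.05. Log2 changes of low genes are understated on this scale, and ratios are of mean FPKM. The fit was also run on simulated data with independent normal scatter, a setting that differs from these data, and no conclusion is drawn from it. Shares were compared by exact permutation in scipy 1.17.1. Gene positions, transcripts and 3′ UTRs came from GENCODE M21, and promoters from RefSeq.

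Alternatives were other pseudocounts (0.1 and 0.01), filters (none and 5 FPKM), quantile, median-of-ratios and immunoglobulin-free scaling, no trend, array weights, a block on the replicate number, each library left out and, added after the data were seen, removal of trends on transcript length and GC content. The 7 genes and all lists were chosen with earlier results of these data known. By rule, named from each list were up to 4 genes with the largest changes past the threshold and no overlap between groups. Also named were the 2 nearest genes per adaptor and genes that complete a count of 5 or fewer called higher or lower. Mapkapk2, Tnf and Cnot7, and the levels given for Cnot8, were chosen after their values were seen. Of the listed genes, Pat1b and Il3 were not analysed here.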

Additional observations from a re-analysis of the deposited data

How the results depend on the processing

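All 7 genes were higher in MHCII-hi in limma, and none lower, under all 17 alternatives, including each library left out (7 to 7 genes). The log2 change ranged from 1.01 (quantile normalization) to 1.23 for Zfp36, 1.60 to 1.80 for Zfp36l1, 0.26 to 0.40 for Zfp36l2, 0.54 to 0.67 for Btg1, 0.60 to 0.74 for Btg2, 0.61 to 0.81 for Tob1 and 0.16 to 0.29 for Tob2. The highest value came from immunoglobulin-free scaling in 6 of them and from removal of length and GC trends in Tob1. The largest adjusted p was 0.0175, for Tob2. With the replicate number as a block the 7 genes stayed higher, and calls over all genes went from 8330 to 8031. Same-numbered libraries had deviations correlated at 0.0626, 0.00190 and 0.0804 across genes, all under 0.1, and not every library correlated best with its own number, so the numbers were not taken to pair libraries. No share changed direction with any of the 6 libraries left out, and shares under quantile normalization or removal of length and GC trends were not computed. Of 340 counts of the gene lists under alternatives, 27 moved by over 1.5 times, 11 of them the count of lower other deadenylases, and the cause was not tested. Unknown read depth limits what can be said of the low genes Btg4 and Zfp36l3.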

Other observations

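The element TATTTAT was also followed over all tested genes with a 3′ UTR, a look chosen after the data were seen and given without a test. Genes with no copy (7095) had a median log2 change of -0.11, those with 1 copy (1933) -0.06 and those with 2 or more copies (1033) -0.02. Of genes without a copy 26.1% were higher and 44.7% lower in MHCII-hi, against 32.9% and 35.9% of those with 2 or more. The 3′ UTRs of these classes also differed in length, with medians of 804, 1797 and 2828 bases. Among 3′ UTRs of up to 642 bases, genes with 2 or more copies had a median of 0.10 (46 genes). Genes with 1 copy (257) had -0.15 there, near the -0.16 of genes with none (3052). Lengths still differed within this class, with medians of 493, 400 and 292.5 bases. In the same order, the median log2 changes between 642 and 1753 bases were 0.02 (221 genes), -0.05 (694) and -0.07 (2439). Beyond 1753 bases they were -0.04 (766), -0.05 (982) and -0.08 (1604). Of the AU-rich targets named above as higher, Tnf had 8 copies, Cxcl2 had 7, Ptgs2 had 6, Il1b had 3 and Ccl3 had 1. Of the 3 lower targets, Bcl2 had 2 copies, Plau had 1 and Ccl2 had 0, and Myc, which was higher, also had 0.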
